A study of Homo sapiens with 12 samples.

Results

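Messenger RNA levels of 9 genes were described: METTL16, METTL5, METTL4, ZCCHC4 and PCIF1, which encode adenosine methyltransferases other than the drug target METTL3, TRMT112, which encodes the partner protein of METTL5, and MAT2A, MAT2B and AHCY, which encode enzymes that make S-adenosylmethionine or clear its product. They were taken by symbol from the count files, where 9 of 19923 genes matched. NGP and SK-N-BE2, established lines from human neuroblastoma with amplified MYCN and a genotype labelled WT, were kept for 6 days with STM2457, an inhibitor of METTL3, or with the solvent DMSO. The dose was 12 µM for SK-N-BE2 and 1 µM for NGP, and each of the 4 groups had 3 replicates, 12 libraries of polyadenylated RNA in all. The labels do not say whether replicates were separate cultures, so the p-values measure the spread between these samples, which may be technical. Each line stands for a single tumour. Line, dose and the data folder named in the file headers, which may mark a sequencing run, changed together. These cannot be told apart when the lines are compared.

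Methylation of adenosine draws its methyl group from S-adenosylmethionine (SAM), which the MAT2A catalytic subunit makes from methionine and ATP, with MAT2B as a regulatory partner. Every transfer leaves S-adenosylhomocysteine, an inhibitor of methyltransferases that AHCY hydrolyses. METTL16 methylates the U6 small nuclear RNA and hairpins at the end of the MAT2A transcript, and through those hairpins it couples the splicing and stability of MAT2A RNA to the SAM supply. METTL5 (on the 18S) and ZCCHC4 (on the 28S) methylate single adenosines of ribosomal RNA, PCIF1 methylates an adenosine next to the mRNA cap, and METTL4 has been described as acting on U2 small nuclear RNA.

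The METTL16 sites are shown because they place MAT2A, the member with the widest range over the 4 groups, beside the methyltransferase that acts on it. The canonical MAT2A transcript of GENCODE 44 (GRCh38, chromosome 2, 85539168 to 85545281, plus strand) has 9 exons and 2817 bases. The motifs UACAGAGAA and UACAGAAAA, which cannot overlap each other, were searched on the sense strand only, since the target is RNA, and 6 matches were found. All 6 lie in exon 9, in a 3′ UTR of 1509 bases, at chr2:85543802-85543830, chr2:85544589-85544617, chr2:85544774-85544802, chr2:85544889-85544917, chr2:85545004-85545032 and chr2:85545112-85545140 in order. They are printed 5′ to 3′ with 10 bases on each side and the motif in capitals.
MAT2A site 1: uggcguaggcUACAGAGAAgccuucaagc
MAT2A site 2: ugugaugucaUACAGAGAAgucacagggc
MAT2A site 3: cugguguagcUACAGAGAAaccagcuucc
MAT2A site 4: auggcguaagUACAGAGAAgccaucaccu
MAT2A site 5: caagguguccUACAGAAAAaccuuggguu
MAT2A site 6: gcugguguggUACAGAGAAgccagcuugu

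The first site starts 40 bases after the stop codon and the others between 827 and 1350 bases after it. In each MAT2A window the bases before the motif hold a run complementary to bases after it, of 4 bases at site 1, 5 at sites 2, 3, 4 and 6, and 6 at site 5. Of 1988 canonical coding transcripts within 10% of the MAT2A length, 125 (6.29%) held at least 1 match, 8 (0.402%) at least 2, and MAT2A alone held 3 or more. Among all 19701 canonical coding transcripts, MUCL3 held more than MAT2A, at 23 matches in 5313 bases. The motifs are those of an enzyme already known to act on MAT2A, so matches there were foreseen and test nothing. The other 8 members held 0 matches in their canonical transcripts. A match is a description of the sequence, and binding or methylation was not measured here.

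**Figure D1:**
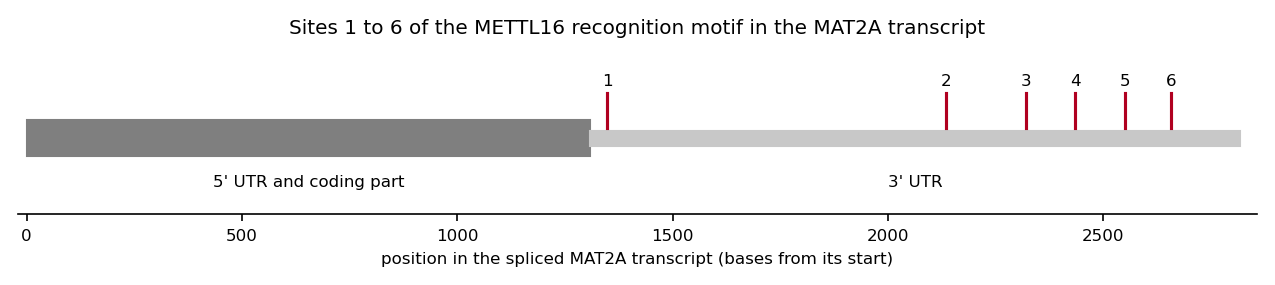
Map of the canonical MAT2A transcript, with position in bases from its start on the x axis. The 3′ UTR and, as 1 block, the 5′ UTR with the coding part are drawn to scale. The 6 motif matches, drawn as marks, all fall in the 3′ UTR, 1 close to the stop codon and 5 starting 827 to 1350 bases after it.

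Library totals lay between 47242379 and 58159937 reads, and in each line the treated and control totals overlapped. HAND2, GATA3, PHOX2A and ISL1, markers of sympathetic neuroblastoma cells, and the amplified MYCN were present in all 12 libraries at 39.9 CPM (counts scaled to the library total on a common TMM scale) or more. TH, another such marker, did not exceed 1.13 CPM in NGP. Of 6 markers of other cell types, PTPRC, CD3E and PECAM1 had 0 reads in NGP, and PTPRC, CD3E, CDH5, PECAM1 and EPCAM stayed at 8.13 CPM or less in every library. PDGFRB, a stromal marker, was higher in all treated libraries than in the controls of the same line, with means of 38.6 and 49.3 CPM in SK-N-BE2 and 29.6 and 141 CPM in NGP, and its part in the results was not tested. NGP DMSO replicate 1 lay apart from its replicates in a principal component analysis of the genes that passed a filter on low counts. It lay at -42.0 on component 4 against 29.2 and 13.1.

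With STM2457, MAT2A fell in both lines, and further in SK-N-BE2. In SK-N-BE2, 5 of 9 members were called (edgeR quasi-likelihood test, Benjamini-Hochberg or BH-adjusted p under 0.05), against 54.7% of 14013 genes. MAT2B and PCIF1 were higher there (26.9% of genes), and MAT2A, ZCCHC4 and TRMT112 were lower (27.8%). In NGP, 3 of 9 were called against 41.7% of 13610 genes, with TRMT112 higher (19.4%) and MAT2A and METTL5 lower (22.2%). The SK-N-BE2 count was 3 without STM2457 replicate 1, and the NGP count was 1 without DMSO replicate 3 or STM2457 replicate 1 or 3. The response differed between lines for 6 members (METTL5, METTL4, ZCCHC4, TRMT112, MAT2A and MAT2B), against 30.9% of 14731 genes. It was more positive in SK-N-BE2 for 2 of them (17.0% of genes) and more negative for 4 (13.9%). For 1 line at a time these shares are close to those of all genes, so the counts say nothing particular about the members.

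Among the members, the median log2 change was -0.20 in SK-N-BE2 and 0.04 in NGP, against -0.02 and -0.03 over all genes tested. The median size of the change was 0.32 and 0.29, against 0.37 and 0.39. Replicates did not overlap between treatment and control for 6 members in SK-N-BE2, where this held for 62.2% of genes, and for 5 in NGP, where it held for 54.7%. All 9 members passed the filter on low counts in every comparison.

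Compared per length, as RPKM (CPM per kilobase of counted exon), the members spanned a wide range of levels. The length was that of all annotated exons of a gene together. It exceeded the canonical transcript by a larger factor for METTL5 and MAT2B than for PCIF1. The order of close neighbours, their overlaps and the size of RPKM ratios therefore depend on the length used. An order per canonical transcript was not computed. In SK-N-BE2 with DMSO the order ran from MAT2A (499.8 RPKM) through AHCY (119.8), TRMT112 (80.3), PCIF1 (13.4), METTL5 (11.3), MAT2B (6.70), METTL16 (4.37) and ZCCHC4 (3.26) to METTL4 (2.51), and no neighbours overlapped in their replicates. MAT2A ranked 51 of 19923 genes in that group. With STM2457 in SK-N-BE2, AHCY (138.1 RPKM) stood above MAT2A (110.6), MAT2B (11.0) stood above METTL5 (10.1), and only ZCCHC4 and METTL4 overlapped.

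In NGP with DMSO, MAT2A (184.1 RPKM) was again the highest member and METTL4 (1.898) the lowest. METTL5 (15.3) overlapped both of its neighbours, PCIF1 (20.4) and MAT2B (13.7). With STM2457 in NGP, MAT2A (141.5) overlapped AHCY (139.4), and METTL5 (9.91) overlapped METTL16 (9.72). The enzymes of the SAM cycle and TRMT112 were thus the most abundant members in all 4 groups apart from MAT2B, and ZCCHC4 and METTL4 the least.

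**Figure D2:**
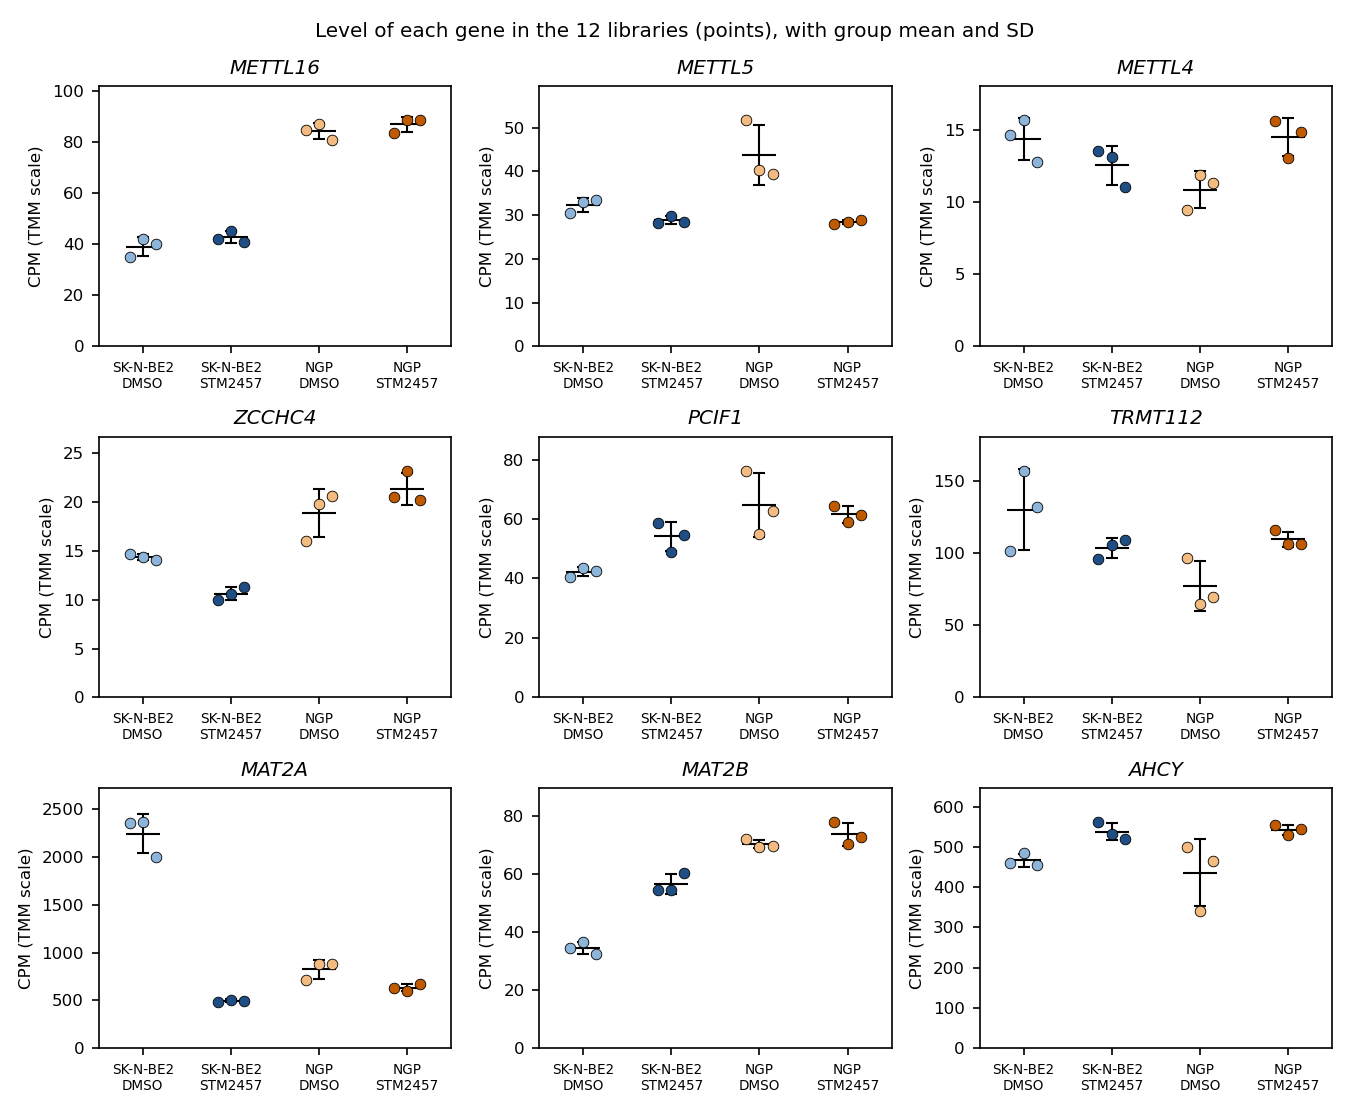
CPM of the 9 members in each library, 1 panel per gene with an axis from 0, by line and treatment. Points are libraries, and dashes with bars are the group mean and SD (n = 3); MAT2A in SK-N-BE2 drops from a mean of 2242 CPM with DMSO to 496 CPM with STM2457, while METTL16 overlaps between treatments in both lines.

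MAT2A (chromosome 2, 85539168 to 85545281, plus strand, GRCh38), the catalytic subunit of SAM synthesis outside the liver, had the widest response of the members in SK-N-BE2, and in NGP a smaller one than METTL5 or TRMT112. In SK-N-BE2 it measured 2357, 2364 and 2003 CPM with DMSO and 479, 509.6 and 499 CPM with STM2457. In NGP it measured 714, 885 and 878 CPM with DMSO and 633, 599 and 672 CPM with STM2457. In both lines every treated library lay below every control library, by a wide margin in SK-N-BE2 and a narrow one in NGP. Because these are bulk libraries, fewer cells with the transcript and less of it per cell cannot be told apart.

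The SK-N-BE2 means were 2242 ± 206 and 496 ± 15.5 CPM (SD, n = 3), a 4.64-fold fall with a log2 change of -2.21 (SE 0.10, edgeR BH-adjusted p 3.08e-09). Of 14013 genes, 234 had a lower log2 change. MAT2A went from 0.198% to 0.232% of counted reads with DMSO to 0.0478% to 0.0512% with STM2457, and from rank 51 to rank 254 by RPKM. In NGP the means were 826 ± 97.0 and 635 ± 36.3 CPM, a 1.32-fold fall with a log2 change of -0.41 (SE 0.11, edgeR BH-adjusted p 0.0206). The response was lower in SK-N-BE2 (difference of log2 changes -1.80, SE 0.15, edgeR BH-adjusted p 1.42e-06).

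In NGP the MAT2A call did not survive without DMSO replicate 3 (adjusted p 0.0795) or STM2457 replicate 1, 2 or 3 (0.0816, 0.0948 and 0.0555), and without DMSO replicate 1 the log2 change was -0.50 with an adjusted p of 0.000183. Counted MAT2A exons hold all bases of the 3 annotated intron-retaining MAT2A transcripts, so spliced and intron-retaining RNA were counted together. They overlap GGCX on the other strand over 12.5% of their length, and no strand option was set in counting. The GGCX mean went from 43.1 to 30.6 CPM in SK-N-BE2 (log2 change -0.53, edgeR BH-adjusted p 0.000122). For NGP it went from 64.5 to 48.8 CPM (-0.43, edgeR BH-adjusted p 0.00897), a log2 change of about the size of that of MAT2A there, and its part in the MAT2A values was not tested. MAT2A also has 1 named pseudogene.

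MAT2B (chromosome 5, 163503114 to 163519354, plus strand), the regulatory subunit, moved the other way in SK-N-BE2. It measured 34.4, 36.4 and 32.4 CPM with DMSO and 54.5, 54.6 and 60.4 CPM with STM2457 there. The NGP libraries gave 71.8, 69.3 and 69.6 CPM with DMSO and 77.8, 70.3 and 72.5 CPM with STM2457. All treated SK-N-BE2 libraries lay above the controls, while the NGP groups overlapped. MAT2B rose 1.60-fold in SK-N-BE2 (log2 change 0.68, SE 0.09, edgeR BH-adjusted p 2.97e-05) and measured 0.04 on the same scale in NGP (SE 0.09, edgeR BH-adjusted p 0.754). The responses differed by 0.65 (SE 0.12, edgeR BH-adjusted p 0.000968).

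The ratio of MAT2A to MAT2B transcripts in RPKM was 74.5 ± 3.91 in SK-N-BE2 with DMSO and 10.1 ± 0.615 with STM2457 (SD, n = 3). In NGP it was 13.5 ± 1.83 with DMSO and 9.89 ± 0.663 with STM2457. The treated ratios of the lines overlapped, at 9.46 to 10.7 in SK-N-BE2 and 9.31 to 10.6 in NGP, whereas the control ratios did not, at 70.7 to 78.5 and 11.4 to 14.6.

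AHCY (chromosome 20, 34280268 to 34311802, minus strand), which hydrolyses S-adenosylhomocysteine, was not called in either line. In SK-N-BE2 it measured 459.6, 485 and 455 CPM with DMSO and 562, 532 and 521 CPM with STM2457. NGP values were 499.96, 342 and 464 CPM with DMSO and 555, 530.03 and 543 CPM with STM2457. Treated libraries lay above all controls in both lines. The log2 change was 0.17 (SE 0.08, edgeR BH-adjusted p 0.105) in SK-N-BE2 against 0.29 (SE 0.14, edgeR BH-adjusted p 0.124) in NGP. It passed the threshold without SK-N-BE2 DMSO replicate 2 (adjusted p 0.0367) and without NGP DMSO replicate 1 (log2 change 0.40, adjusted p 0.0115), and the response did not differ detectably between lines (-0.11, SE 0.16, edgeR BH-adjusted p 0.645). The RPKM ratio of MAT2A to AHCY was 4.17 ± 0.319 with DMSO and 0.802 ± 0.0531 with STM2457 for SK-N-BE2. For NGP it was 1.71 ± 0.508 and 1.02 ± 0.0512. AHCY has 6 named pseudogenes and reads that map to several places were not counted, so its level is uncertain.

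**Figure D3:**
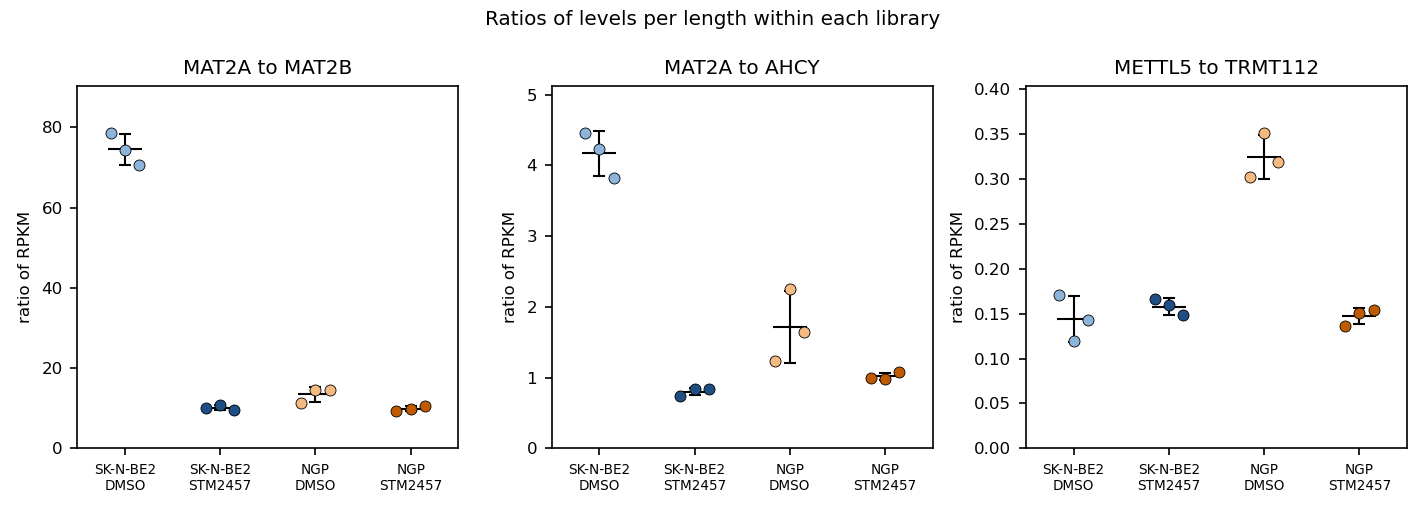
Ratios of RPKM between members in each library, by line and treatment, on axes from 0. Points are libraries, and dashes with bars are the group mean and SD (n = 3); the MAT2A to MAT2B ratio of SK-N-BE2 drops from 70.7 to 78.5 with DMSO into the range of treated NGP, and the METTL5 to TRMT112 ratio of NGP drops from 0.303 to 0.351 into the range of SK-N-BE2.

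METTL16 (chromosome 17, 2405562 to 2511891, minus strand), the U6 and MAT2A methyltransferase, in SK-N-BE2 measured 34.8, 42.0 and 40.2 CPM with DMSO and 42.1, 45.3 and 40.6 CPM with STM2457. In NGP the libraries held 84.7, 87.0 and 80.9 CPM with DMSO and 83.5, 88.4 and 88.6 CPM with STM2457. Treated and control libraries overlapped in both lines, and NGP held the higher level in every library. The log2 changes were 0.09 (SE 0.10, edgeR BH-adjusted p 0.441) in SK-N-BE2 against 0.02 (SE 0.09, edgeR BH-adjusted p 0.882) in NGP. The MAT2A response in SK-N-BE2 thus stood beside a METTL16 transcript level that was not called as changed.

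METTL5 and TRMT112 encode the 18S ribosomal RNA methyltransferase and the small protein that stabilizes it. METTL5 (chromosome 2, 169810081 to 169824931, minus strand) in SK-N-BE2 measured 30.5, 33.1 and 33.5 CPM with DMSO and 28.2, 29.8 and 28.5 CPM with STM2457. In NGP it measured 51.7, 40.3 and 39.3 CPM with DMSO and 27.98, 28.3 and 28.9 CPM with STM2457. Treated libraries lay below all controls in both lines, and the 6 treated libraries of the lines shared 1 narrow range. METTL5 fell in NGP (log2 change -0.65, SE 0.13, edgeR BH-adjusted p 0.00436) and missed the threshold in SK-N-BE2 (-0.20, SE 0.09, edgeR BH-adjusted p 0.0656), where it passed without DMSO replicate 1 (adjusted p 0.0287).

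The METTL5 responses differed by 0.46 (SE 0.15, edgeR BH-adjusted p 0.0342). That call was lost without any of the 6 SK-N-BE2 libraries (DMSO replicates 1 to 3 at adjusted p 0.0911, 0.0539 and 0.0591, STM2457 replicates 1 to 3 at 0.0581, 0.0812 and 0.0623) or any treated NGP library (0.0737, 0.0614 and 0.0614). METTL5 has 4 named pseudogenes, and its exons overlap SSB on the other strand over 19.97% of their length, so its level is uncertain. The SSB mean fell from 151 to 130 CPM in SK-N-BE2 and measured 109 and 129 CPM in NGP, and its part in the METTL5 values was not tested.

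TRMT112 (chromosome 11, 64316460 to 64318084, minus strand) in SK-N-BE2 measured 101, 157 and 133 CPM with DMSO and 96.2, 106 and 109 CPM with STM2457. The NGP libraries gave 96.9, 65.1 and 69.8 CPM with DMSO and 116, 106 and 107 CPM with STM2457. The SK-N-BE2 groups overlapped through DMSO replicate 1, while in NGP all treated libraries were higher. TRMT112 fell in SK-N-BE2 (log2 change -0.37, SE 0.13, edgeR BH-adjusted p 0.0277) and was higher in NGP with STM2457 (0.48, SE 0.15, edgeR BH-adjusted p 0.0330), and the responses differed by -0.84 (SE 0.22, edgeR BH-adjusted p 0.0113).

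The difference in the TRMT112 response held in all 12 fits that left out a library, but the calls within a line did not. In SK-N-BE2 the call was lost without DMSO replicate 2 (log2 change -0.21, adjusted p 0.131), DMSO replicate 3 (0.0737) or STM2457 replicate 1 or 2 (0.105 and 0.0643), and in a joint fit of all libraries (0.103). In NGP it was lost without DMSO replicate 2 or 3 (0.0836 and 0.119) or STM2457 replicate 1, 2 or 3 (0.117, 0.0659 and 0.0774), and without DMSO replicate 1 the log2 change was 0.67 with an adjusted p of 4.67e-05. TRMT112 has 7 named pseudogenes and overlaps ESRRA on the other strand over 17.5% of its exons, so its level is uncertain. The ESRRA means were 47.4 and 42.9 CPM in SK-N-BE2 and 39.4 and 30.4 CPM in NGP, with DMSO and STM2457 in turn.

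The RPKM ratio of METTL5 to TRMT112 was 0.325 ± 0.0246 in NGP with DMSO and 0.147 ± 0.00903 with STM2457 (SD, n = 3), and the replicates did not overlap. In SK-N-BE2 it was 0.144 ± 0.0257 with DMSO and 0.158 ± 0.00910 with STM2457, and they did. By RPKM, METTL5 transcripts were thus fewer than those of its partner in every library.

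ZCCHC4 (chromosome 4, 25312774 to 25370383, plus strand), the 28S ribosomal RNA methyltransferase, in SK-N-BE2 measured 14.7, 14.4 and 14.0 CPM with DMSO and 9.99, 10.5 and 11.3 CPM with STM2457. NGP values were 16.1, 19.9 and 20.6 CPM with DMSO and 20.6, 23.2 and 20.2 CPM with STM2457. It was lower in every treated SK-N-BE2 library and overlapped in NGP. ZCCHC4 fell in SK-N-BE2 (log2 change -0.47, SE 0.11, edgeR BH-adjusted p 0.00188) and measured 0.15 in NGP (SE 0.13, edgeR BH-adjusted p 0.397), with a difference of -0.61 (SE 0.16, edgeR BH-adjusted p 0.0117).

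METTL4 (chromosome 18, 2537525 to 2571509, minus strand) had the lowest mean RPKM of the members in every group, overlapping ZCCHC4 in treated SK-N-BE2. By CPM the SK-N-BE2 means of ZCCHC4 were lower than those of METTL4. In SK-N-BE2 METTL4 measured 14.6, 15.7 and 12.8 CPM with DMSO and 13.5, 13.1 and 11.0 CPM with STM2457. In NGP the libraries held 9.43, 11.9 and 11.3 CPM with DMSO and 15.7, 13.0 and 14.9 CPM with STM2457. The SK-N-BE2 groups overlapped, and the treated NGP libraries lay above their controls. Neither line was called, at -0.23 (SE 0.12, edgeR BH-adjusted p 0.115) in SK-N-BE2 against 0.39 (SE 0.14, edgeR BH-adjusted p 0.0550) in NGP, where DESeq2 gave an adjusted p of 0.0253 and leaving out STM2457 replicate 2 gave 0.0488.

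The difference in the METTL4 response was called (-0.61, SE 0.19, edgeR BH-adjusted p 0.0241). It was lost without SK-N-BE2 DMSO replicate 2 (adjusted p 0.0537), SK-N-BE2 STM2457 replicate 3 (0.0709) or NGP STM2457 replicate 1 or 3 (0.0657 and 0.0544).

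PCIF1 (chromosome 20, 45934683 to 45948023, plus strand), the cap-adjacent adenosine methyltransferase, in SK-N-BE2 measured 40.6, 43.6 and 42.5 CPM with DMSO and 58.8, 49.0 and 54.7 CPM with STM2457. In NGP it measured 76.2, 55.0 and 62.8 CPM with DMSO and 64.6, 59.0 and 61.2 CPM with STM2457. All treated SK-N-BE2 libraries were higher than the controls, and the NGP groups overlapped. PCIF1 rose in SK-N-BE2 (log2 change 0.32, SE 0.09, edgeR BH-adjusted p 0.00845), a call lost without STM2457 replicate 1 (adjusted p 0.0566). It measured -0.09 in NGP (SE 0.13, edgeR BH-adjusted p 0.596), and the difference of 0.43 (SE 0.16) was not called (edgeR BH-adjusted p 0.0571).

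**Figure D4:**
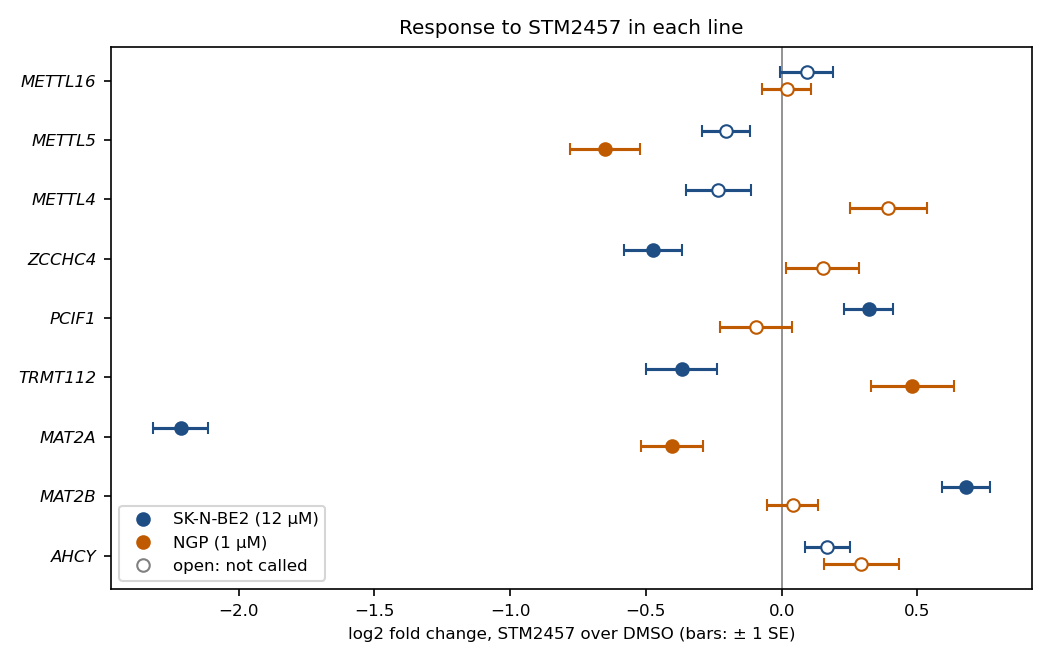
Log2 change with STM2457 of each member in SK-N-BE2 and NGP, with bars of 1 SE from the edgeR fit of each line and filled points where the gene was called. MAT2A in SK-N-BE2 lies at -2.21 and every other point between -0.65 and 0.68.

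In DMSO alone the lines already differed for 8 of 9 members, where 71.1% of 14731 genes differed. Of the members 3 were higher in SK-N-BE2 (35.7% of genes) and 5 lower (35.4%), and replicates of 8 did not overlap between lines (68.9%). MAT2A was 2.71-fold higher in SK-N-BE2 (log2 difference 1.44, SE 0.11, edgeR BH-adjusted p 1.71e-08), and TRMT112 (0.76) and METTL4 (0.40) were also higher there. METTL16 (-1.11), MAT2B (-1.03), PCIF1 (-0.61), METTL5 (-0.44) and ZCCHC4 (-0.39) were lower, and AHCY was not called (0.10, SE 0.11, edgeR BH-adjusted p 0.450). This contrast shares its control libraries with both treatment comparisons.

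The surrounding pathways were read from 7 lists of 66 genes in all, of which 65 were analysed. Of the 59 list genes tested in SK-N-BE2, 13 were higher and 17 lower with STM2457, against 26.9% and 27.8% of all genes. In NGP 11 of 58 were higher and 7 lower, against 19.4% and 22.2%. The response of 10 of 61 list genes differed between lines, against 30.9% of all genes. The NGP count rose from 18 to 32 without NGP DMSO replicate 1, and the count of differing genes from 10 to 23.

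Of the methionine cycle and salvage list, 4 genes were higher and 3 lower of 14 tested in SK-N-BE2 (median log2 change 0.10). In NGP 1 was higher and 2 lower of 15 (median -0.04). BHMT, among those lower in NGP, had a group mean of at most 0.844 CPM there. CTH, which makes cysteine from cystathionine, fell in both lines. It went from 19.7 ± 1.27 to 6.27 ± 0.431 CPM in SK-N-BE2 (log2 change -1.69, edgeR BH-adjusted p 7.43e-08) and from 22.7 ± 2.59 to 9.99 ± 0.284 CPM in NGP (-1.21, edgeR BH-adjusted p 0.000204). CBS, which takes homocysteine into cystathionine, fell in SK-N-BE2 from 84.1 ± 7.48 to 49.3 ± 1.05 CPM (-0.81, edgeR BH-adjusted p 4.54e-06) and measured -0.08 in NGP (edgeR BH-adjusted p 0.558), with a called difference of -0.71 (edgeR BH-adjusted p 0.000944). MTR, which remakes methionine from homocysteine, rose in NGP from 78.4 ± 16.5 to 125 ± 5.82 CPM (0.65, edgeR BH-adjusted p 0.0106) and by 0.36 in SK-N-BE2 (edgeR BH-adjusted p 0.00560).

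The list of small-molecule methyltransferases, which also spend SAM, held ICMT as well, whose substrates are proteins. It had 2 higher (ICMT and HNMT) and 4 lower of 9 tested in SK-N-BE2 (median -0.60). HNMT and INMT, which was among those lower, had group means of at most 0.730 and 0.550 CPM there. With a filter on a mean of at least 1 CPM, 4 genes of the list were called in SK-N-BE2. In NGP 0 were higher and 1 lower of 7 by edgeR (median -0.19), with 0 higher at an unadjusted p under 0.05 and 0 by DESeq2. GAMT, the last enzyme of creatine synthesis, fell in SK-N-BE2 from 33.1 ± 8.11 to 17.1 ± 2.35 CPM (-0.99, edgeR BH-adjusted p 0.000132). Its NGP value of -0.64 was not called by edgeR (BH-adjusted p 0.0563) and was called by DESeq2 (adjusted p 0.0234). The GAMT difference between lines was not called (-0.33, edgeR BH-adjusted p 0.464). ICMT, which methylates prenylated proteins, rose in SK-N-BE2 from 87.6 ± 2.96 to 146 ± 2.78 CPM (0.70, edgeR BH-adjusted p 5.84e-06).

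Among the other partners of TRMT112, 0 of 6 tested were higher and 2 lower in SK-N-BE2 by edgeR (median -0.13), with 0 higher at an unadjusted p under 0.05 and 0 by DESeq2. In NGP 1 was higher and 1 lower (median 0.11). N6AMT1, which methylates a translation release factor, fell in SK-N-BE2 (-0.77, edgeR BH-adjusted p 0.000210) and measured 0.31 in NGP (edgeR BH-adjusted p 0.159), with a called difference of -1.06 (edgeR BH-adjusted p 0.00169). ALKBH8, a tRNA wobble-base enzyme, fell in both (-0.51 and -0.86, edgeR BH-adjusted p 0.000578 and 0.00413). TRMT11, a tRNA guanosine methyltransferase, rose in NGP (0.38, edgeR BH-adjusted p 0.0313), a call kept in 2 of 6 fits that left out a library.

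Cap enzymes beside PCIF1 had 1 higher and 1 lower of 6 tested in each line (medians 0.00 in SK-N-BE2 and -0.04 in NGP). In SK-N-BE2 RNGTT, the capping enzyme, rose (0.43, edgeR BH-adjusted p 0.00446) and CMTR2, a cap 2′-O-methyltransferase, fell (-0.34, edgeR BH-adjusted p 0.0108). In NGP CMTR1, another such enzyme, rose from 106 ± 1.67 to 142 ± 3.23 CPM (0.40, edgeR BH-adjusted p 0.00599) and RAMAC, the activating partner of the cap guanine methyltransferase, fell (-0.34, edgeR BH-adjusted p 0.0472), a call kept in 1 of 6 such fits. RAMAC exons overlap a gene on the other strand over 15.5% of their length.

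Other adenosine methyltransferases of ribosomal and transfer RNA had 1 higher and 3 lower of 7 tested in SK-N-BE2 (median -0.21), and 1 higher and 2 lower in NGP (median -0.16). TRMT61A, which with TRMT6 makes N1-methyladenosine in tRNA, fell from 47.2 ± 3.80 to 25.9 ± 2.24 CPM in SK-N-BE2 (-0.91, edgeR BH-adjusted p 6.06e-06) and from 68.4 ± 15.8 to 29.0 ± 3.95 CPM in NGP (-1.26, edgeR BH-adjusted p 0.000823). TFB1M, a mitochondrial ribosomal RNA dimethyltransferase, fell in SK-N-BE2 (-0.43, edgeR BH-adjusted p 0.00229) and rose in NGP (0.35, edgeR BH-adjusted p 0.0416). The NGP call of TFB1M was kept in 1 of 6 fits that left out a library, and its exons overlap a gene on the other strand over 30.7% of their length.

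Proteins that assemble and process U6, the other METTL16 substrate, had 4 higher and 2 lower of 13 tested in SK-N-BE2 (median 0.19). In NGP 6 were higher and 0 lower by edgeR (median 0.21), with 1 lower at an unadjusted p under 0.05 and 0 by DESeq2. LSM6, a subunit of the ring on the end of U6, rose in both lines (0.43 and 0.59, edgeR BH-adjusted p 0.00647 and 0.0111). LARP7, which binds U6 during its modification, rose in NGP from 48.4 ± 4.49 to 81.7 ± 2.05 CPM (0.73, edgeR BH-adjusted p 0.000860). Its SK-N-BE2 value of 0.21 was not called by edgeR (BH-adjusted p 0.0565) and was called by DESeq2 (adjusted p 0.0494). LARP7 exons overlap a gene on the other strand over 21.97% of their length. TUT1, which adds uridines to U6, fell in SK-N-BE2 (-0.87, edgeR BH-adjusted p 2.11e-05), and 46.5% of its exon length overlaps another gene on the same strand.

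Of 4 factors that process or read MAT2A RNA, 1 was higher and 2 lower in SK-N-BE2 (median -0.16). In NGP 1 was higher and 0 lower by edgeR (median 0.07), with 0 lower at an unadjusted p under 0.05 and 0 by DESeq2. CPSF6, a cleavage factor subunit, fell in SK-N-BE2 from 213 ± 7.65 to 181 ± 11.7 CPM (-0.27, edgeR BH-adjusted p 0.0128, kept in 4 of 6 fits that left out a library) and rose in NGP from 768 ± 124 to 1232 ± 39.5 CPM (0.66, edgeR BH-adjusted p 0.00417). YTHDC1, the nuclear m6A reader, fell in SK-N-BE2 (-0.29, edgeR BH-adjusted p 0.0151, kept in 4 of 6).

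**Figure D5:**
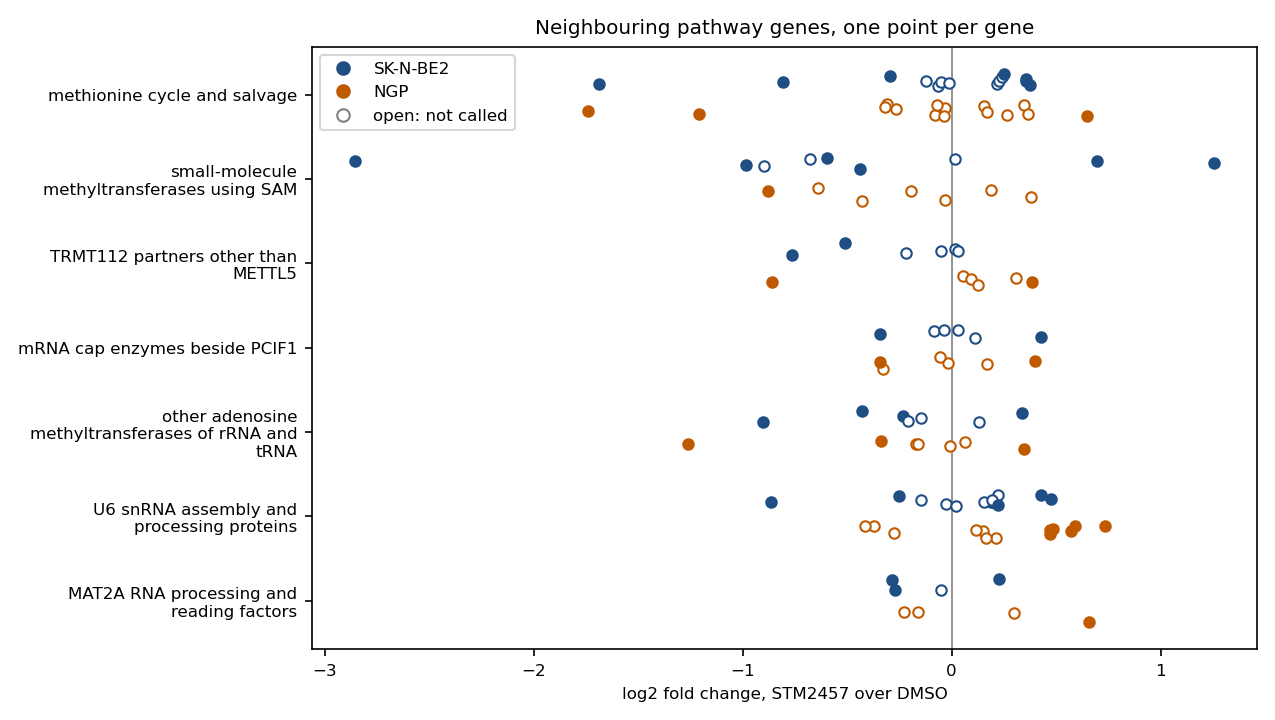
Log2 change with STM2457 of every tested gene on the 7 lists, by list and line. Points are genes and filled points passed the edgeR BH-adjusted p of 0.05; the lists hold filled points on both sides of 0 in SK-N-BE2 apart from the TRMT112 partners.

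Patterns over the 12 libraries were compared by Pearson's r of log2 CPM among 10648 genes, for the 3 members whose group means spanned the widest range. Closest to MAT2A were IDH1, cytosolic isocitrate dehydrogenase (r 0.984, Spearman's rho 0.986), and ZNF558, a zinc finger gene (r 0.976, rho 0.972). IDH1 measured 341, 87.1, 162 and 108 CPM in SK-N-BE2 with DMSO and STM2457 and NGP with DMSO and STM2457 in turn, the same order of groups as MAT2A. STXBP6 and LYSMD4 came closest to METTL16 (r 0.995 for both, rho 0.846 and 0.944). With DMSO and STM2457 in turn, STXBP6 had means of 0.0396 and 0.0634 CPM in SK-N-BE2 and 38.4 and 34.5 CPM in NGP. CD24 and ATP1B1 came closest to MAT2B (r 0.990 for both, rho 0.972 and 0.937). The 12 points share 2 lines and 4 groups, so these values are descriptions.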

How the data were processed

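Groups and replicate numbers came from the sample titles. The authors' counts were made, per the file headers, with featureCounts 2.0.5 in paired mode over exons grouped by gene name (GENCODE 33 protein-coding genes), without a strand option, multi-mapping reads or counting of pairs, so a fragment can add 2 reads. The deposited values are raw counts. The submitters' processing notes name FastQC 0.11.5, Trimmomatic 0.36, HISAT2 2.1.0, Subread 1.5.3 and GRCh38, without roles or order. Poly(A) RNA was selected, per the labels' protocols.

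Each line was fitted separately with edgeR 4.0.16 in R 4.3.3 (TMM factors, filterByExpr with a minimum count of 10, quasi-likelihood test, Benjamini-Hochberg adjustment over all genes tested). The difference between lines and the DMSO contrast came from 1 fit of 12 libraries. Changes are relative to the TMM scale. On simulated counts in which 200 genes were given a log2 fold change of 1, the fits called 88.9% of these for SK-N-BE2 (of 13909 genes simulated), 82.3% for NGP (13483), 53.8% for the difference (14617) and 75.8% for the DMSO contrast (14512), with 7.85%, 5.78%, 7.08% and 9.09% of calls false. The simulated share of changed genes was far below the real share passing the threshold, 54.7% for SK-N-BE2 and 41.7% for NGP. Within each line, every member change other than that of MAT2A in SK-N-BE2 was also smaller than 1. The simulated percentages therefore do not give the recovery or the false share of the calls reported here. Libraries held 47242379 to 58159937 reads. Of these the members held from 475 (METTL4, NGP DMSO replicate 1) to 134848 reads (MAT2A, SK-N-BE2 DMSO replicate 1). Counting error therefore weighs more on METTL4 and ZCCHC4 than on MAT2A, and it was not measured apart from the spread between replicates. The 3 replicates per group also limit the precision.

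The members and lists were chosen with earlier results of these data known. All members were named, with up to 2 called genes per list and line, those of the largest change with a group mean of at least 1 CPM and no overlap of replicates, and, for the 3 members of widest span, the 2 genes of highest r with a group mean of at least 10 CPM. Alternatives were DESeq2 1.42.0 and its size factors, upper-quartile factors, other filters, halved counts, a replicate block, a joint or separate fit and leaving out each library. Overlaps and motifs came from GENCODE 44. AMD1 was not analysed here, and some items within these rules are not reported here.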

Additional observations from a re-analysis of the deposited data

Results flagged for a closer look

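The STM2457 response differed between SK-N-BE2 and NGP, by the edgeR test of the difference itself, for 6 members. The differences in log2 fold change (SK-N-BE2 minus NGP) were -1.80 for MAT2A, -0.84 for TRMT112, -0.61 for METTL4, -0.61 for ZCCHC4, 0.46 for METTL5 and 0.65 for MAT2B. TRMT112 was called in opposite directions in the 2 lines. MAT2A fell in both, METTL5 fell in NGP, ZCCHC4 fell and MAT2B rose in SK-N-BE2, and METTL4 was called in neither line.

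Among the named list genes the same test found differences of -1.06 for N6AMT1, -0.91 for CPSF6, -0.76 for TFB1M, -0.71 for CBS, -0.51 for LARP7, -0.47 for CTH and 0.52 for ICMT. CPSF6 and TFB1M were called lower in SK-N-BE2 and higher in NGP, and CTH was lower in both. The CTH difference (adjusted p 0.0433) was lost with no filter (0.0773) and without SK-N-BE2 DMSO replicate 1 or 2 (0.0784 and 0.0696), SK-N-BE2 STM2457 replicate 1, 2 or 3 (0.112, 0.0738 and 0.0565) or NGP STM2457 replicate 1, 2 or 3 (0.0889, 0.0566 and 0.0841). Line, dose (12 µM against 1 µM) and the data folder named in the file headers, which may mark a sequencing run, cannot be told apart in these differences.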

How the results depend on the processing

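The count of called members in NGP was 5 in a joint fit of all 12 libraries, and otherwise stayed within 1.5 times under the other scalings, filters, halved counts and DESeq2. Leaving out 1 library gave 3 to 6 called members in SK-N-BE2, 1 to 4 in NGP, 4 to 7 for the difference and 8 in every such fit of the DMSO contrast. For list genes the ranges were 21 to 30, 12 to 32, 7 to 23 and 40 to 47, the highest NGP and difference counts without NGP DMSO replicate 1. Over all genes they were 6497 to 7849, 3816 to 7897, 3701 to 6274 and 9941 to 11072. The cause of these shifts was not tested. No member or named gene reversed a called direction, and MAT2A in SK-N-BE2 stayed between -2.29 and -2.17 over 14 alternatives. With Spearman's rho in place of r, 1 of 2 genes most like MAT2A remained, and 0 of 2 for METTL16 and for MAT2B.

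Same-numbered replicates did not deviate together (r -0.058, 0.088 and 0.031 for SK-N-BE2, 0.015, -0.074 and 0.022 for NGP). Replicates of different number gave r from -0.150 to 0.119. The check thus gave no sign of pairing, but samples set up together need not deviate together, so it cannot exclude it. With a replicate block, 5, 3, 5 and 8 members, 27, 13, 7 and 42 list genes and 7522, 5026, 4025 and 10233 of all genes were called in SK-N-BE2, NGP, the difference and the DMSO contrast. The block ended the calls of the METTL5 and CTH differences (adjusted p 0.0657 and 0.0851) and of TRMT11, RAMAC and TFB1M in NGP (0.0553, 0.104 and 0.0873). Precision is limited by 3 replicates per group, and levels of genes with overlaps or pseudogenes by the counting.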
